A study of Mus musculus with 12 samples.

Results

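The expression of 10 Notch pathway genes was followed along the neural tube of the mouse embryo: the receptors Notch1, Notch2 and Notch3, the ligands Dll1 and Jag1, the glycosyltransferase Lfng, and the effectors Hes1, Hes3, Hes5 and Hey1. Their probe sets were those whose platform annotation names exactly 1 gene, that gene being on the list. This gave 17 of the 34945 probe sets that name 1 gene and are not controls, and 10 of the 18193 genes so named. Of the 10 genes, 9 were bright enough to be tested, while Hes3 exceeded the median signal of its array on 1 of 12 arrays only and was not tested.

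The posterior neural tube came from CD1 mouse embryos, an outbred stock, at embryonic day 9.5, with no genetic change and no experimental treatment named in the labels. Embryos were exposed to pancreatin, an enzyme mixture that loosens tissue layers, at 2 mg per ml for 1 min, and the tube was freed with needles and divided into 6 pieces numbered part 1 to part 6. The labels do not state which number lies at the tail end. Each piece was hybridised on 2 Affymetrix arrays, replicates 1 and 2. Tissue came from 2 embryos in all, so every p-value below rests on 2 animals. In tests of a straight line or bend along the part number, the spread also holds departures of the pieces from that course. The main fits treat the arrays as independent. The values are linear MAS5 signals, and the levels of different probe sets cannot be compared with each other.

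Notch receptors are cut when a Delta or Jagged ligand on a neighbouring cell binds them, and the freed intracellular fragment joins the DNA-binding protein Rbpj in the nucleus and switches on Hes and Hey genes. These encode repressors that hold back the proneural genes of the Neurog family, so that neural progenitors delay their differentiation into neurons. In the presomitic mesoderm beside the tube, the same pathway takes part in the segmentation clock, and Lfng and Hes7 are known as oscillating genes there.

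Rbpj recognises the letters GTGGGAA, and the promoters of 7 of the 10 genes were found in the RefSeq promoter table (build GRCm38.p6), in 8 windows because Dll1 has 2 starts. The search covered the 250 bases before each listed start on both strands, where the other strand reads TTCCCAC. The motif lay in the windows of Hes5 and Lfng and not in those of Notch1, Notch2, Notch3, Dll1 and Jag1. Of all 32851 windows, 1779 held it, or 5.415%. Hes5 held it in both orientations, TTCCCAC first and GTGGGAA nearer to the start, an arrangement present in 8 of all windows (0.024%). Windows with 2 or more matches in any orientation numbered 53 (0.161%). The pieces below are shown because they carry the motif in the member with the largest change along the tube, in Lfng, and in Hes7 and Hey2, other Hes and Hey genes of the pathway. Each runs 5′ to 3′ on the gene's strand, with the motif in capitals.
Hes5, chr4:154960686-154960715, plus strand, motif 226 to 220 bases before the start: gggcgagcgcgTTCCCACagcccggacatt
Hes5, chr4:154960829-154960858, plus strand, motif 83 to 77 bases before the start: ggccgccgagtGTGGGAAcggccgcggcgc
Lfng, chr5:140607221-140607250, plus strand, motif 109 to 103 bases before the start: ccgtatcccacGTGGGAAggagagatctcc
Hes7, chr11:69120262-69120291, plus strand, motif 180 to 174 bases before the start: cctcccctcacTTCCCACatttggggctag
Hey2, chr10:30842972-30843001, minus strand, motif 207 to 201 bases before the start: gcgcggtggcaTTCCCACgcctctgccaac
Among the other pathway genes 4 of 68 windows held the motif, those of Psen2, Spen, Hes7 and Hey2, while the windows of Hes6 and Nrarp did not. A match is a description of letters and not a measured binding site. The RefSeq span of Hes5 begins before the start used here, so both Hes5 pieces lie within that span.

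The 12 arrays were alike in brightness, with median signals from 16.7 to 19.1. Across genes, the lowest correlation between replicates was 0.951, in part 1, and the highest was 0.98, in part 5. Of the 7 neural progenitor markers, all tested, 5 rose by slope and none fell, where 5.64% of all genes rose and 7.05% fell. Sox2 ranged from 199 to 1649, and the summed signal of the 7 progenitor markers was 1012 and 1091 on the arrays of part 1 and 3073 and 3160 on those of part 6. Fabp7, 1 of the 7, was lower in part 6 (51.5 ± 10.5, SD) than in part 1 (518 ± 95.1, limma adjusted p = 0.0166), and Nes did not pass (adjusted p = 0.634). The presomitic mesoderm sum ran the other way. Its 7 tested genes of 8 summed to 3983 and 5523 in part 1, 2218 and 3624 in part 2, and 226 to 678 in parts 3 to 6. Such sums weigh bright genes most, and Rspo3 alone read 2581 and 2641 in part 1. By slope 4 of the 7 fell and none rose, where 7.05% of all genes fell. Tbx6, 1 of the 4, read at most 15.8 in parts 3 to 6, below the lowest array median of 16.7. It was tested only because parts 1 and 2 were brighter, which favours a fall. The count therefore cannot be weighed against that share. Msgn1 (limma adjusted p = 0.0535), Mesp1 (0.856) and Mesp2 (0.434) did not pass. The somite list (2 tested genes of 6) summed to 266 in replicate 1 of part 2 and to 40.1 to 119 elsewhere. The endothelial list had 3 tested genes of 9, summing to 67.2 to 138, and its defining genes Pecam1 and Cdh5 never exceeded 8.89 and 11.4. Globin and other blood genes (4 tested of 6) summed to 36.5 and 9902 on the arrays of part 1 and varied as widely within part 6, from 73.3 to 6263. Part 1 also had high ratios of 3′ to 5′ control signal, at 3.685 and 4.004 log2 for Actb against 2.39 to 3.88 elsewhere, and 3.09 and 3.23 for Gapdh against 1.56 to 3.20. The share of these differences in the results below was not tested, except where values without part 1 are given.

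Some mesodermal genes, though not all, were higher in replicate 1 of parts 1 and 2. Tbx6, a transcription factor of presomitic mesoderm, read 518 and 188 on the 2 arrays of part 1, 272 and 33.7 on those of part 2, and at most 15.8 in parts 3 to 6. Meox1, a somite gene, read 26.6 and 109.5 in replicate 1 of parts 1 and 2, against 2.39 and 2.82 in replicate 2. In part 1 other markers of the same lists were level or lower in replicate 1: Rspo3 read 2581 and 2641, Msgn1 23.1 and 28.5, Mesp2 6.98 and 21.7, and Tcf15 92.2 and 88.8. Rspo3, Tcf15, Msgn1 and Mesp2 were all higher in replicate 1 of part 2. There Rspo3 read 1612 and 1445, and Tcf15 read 157 and 91.0. Msgn1 (11.4 and 7.90) and Mesp2 (16.2 and 2.82) lay below the lowest array median of 16.7 in that piece. Calls that were lost without replicate 1 of parts 1 and 2 are named as such below.

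The main question was how the pathway changes along the part number. Hes5 and Notch2 rose from part 1 to part 6, Hey1 fell, and Jag1 was high at part 1, lowest in parts 3 and 4 and higher again in part 6. In the limma slope test with Benjamini-Hochberg adjustment over 12089 genes, 3 of the 9 tested members passed at an adjusted p of 0.05, compared with 12.7% of all genes. Of these, 2 rose and 1 fell, against 5.64% of genes rising and 7.05% falling. The test for any difference among the 6 pieces (limma F test) called Hes5, Notch2 and Jag1, or 3 of 9, against 4.89% of all genes. The direct comparison of part 6 with part 1 called Hes5 and Notch2, or 2 of 9, against 9.0% of all genes in either direction and 4.14% that were higher in part 6. The median slope of the 9 members was -0.063 log2 per part and that of all genes was -0.0073. Without replicate 1 of parts 1 and 2 the slopes of Hes5 (1.00, adjusted p = 0.0268), Notch2 (0.24, adjusted p = 0.0068) and Hey1 (-0.17, adjusted p = 0.0321) still passed.

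**Figure D1:**
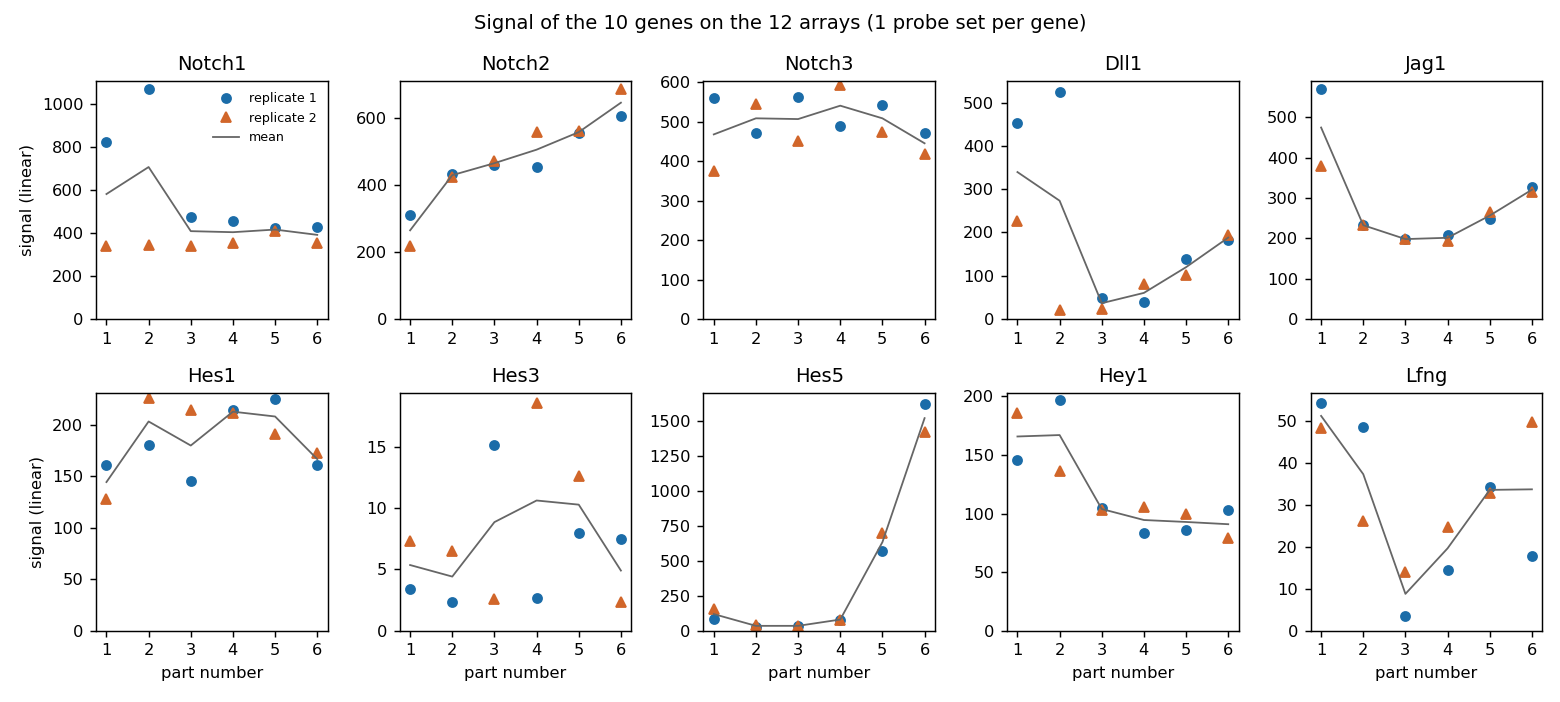
Linear signal (y axis) against part number (x axis) for the 10 genes, 1 probe set per gene, with circles for replicate 1, triangles for replicate 2 and a line through the mean of each piece. Hes5 stays at or below 152 in parts 1 to 4 and reaches 1415 and 1619 in part 6, Notch2 climbs from 217 and 311 to 603 and 685, and Hes3 stays below 19 throughout.

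Among the receptors, Notch2, a close relative of Notch1 whose loss is lethal to the embryo, was the only one of the 3 to pass a test along the tube. Its brighter probe set gave 311 and 217 in part 1, 433 and 424 in part 2, and 458 and 471 in part 3. It went on to 453 and 556 in part 4, 554 and 559 in part 5, and 603 and 685 in part 6. The mean signal rose at every step, and no array of part 1 overlapped any array of the other pieces. By mean the order was part 6 (644 ± 58.0, SD, n = 2), part 5 (557 ± 3.25), part 4 (504 ± 73.1), part 3 (464 ± 9.32), part 2 (428 ± 5.86) and part 1 (264 ± 66.4). The arrays of part 4 overlapped those of both parts 5 and 3. The slope of Notch2 was 0.22 ± 0.037 log2 per part (SE, limma adjusted p = 0.00158), and part 6 exceeded part 1 by 1.29 ± 0.20 log2 (adjusted p = 0.00368), a mean signal ratio of 2.44. Both replicates showed the rise, with slopes of 0.16 in replicate 1 and 0.27 in replicate 2. Without both arrays of part 1 the slope was 0.14 (adjusted p = 0.00973).

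A second Notch2 probe set lay between 0.703 and 22.9 and exceeded the median of its array on 2 arrays. Its slope was -0.13, and when the kept probe sets of each gene were averaged the Notch2 slope was 0.043 and its call was lost (limma adjusted p = 0.738). The F test call of Notch2 (adjusted p = 0.0365) held in 8 of 24 alternatives.

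Notch1, the receptor best known from neural progenitors, was level in parts 3 to 6 and split by replicate in parts 1 and 2. Its brighter probe set gave 826 and 339 in part 1 and 1072 and 344 in part 2, then 477 and 343 in part 3. From part 4 to part 6 the pairs were 457 and 353, 426 and 409, and 429 and 356. All 6 arrays of replicate 2 lay between 339 and 409, while replicate 1 was the higher array in every piece. The 6 pieces, ordered part 2, 1, 5, 3, 4 and 6 by mean, overlapped at each neighbouring pair. The slope was -0.11 ± 0.078 (limma adjusted p = 0.413), with -0.25 in replicate 1 and 0.032 in replicate 2. The difference between those slopes, 0.28 ± 0.084, did not pass the limma test (adjusted p = 0.749). No tested gene passed it (0.0% of genes), although 799 had an unadjusted p under 0.05.

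Replicate 2 lay below replicate 1 by 0.68 ± 0.21 log2 for Notch1 (limma adjusted p = 0.140), and none of the 9 members passed this comparison, against 1.62% of all genes. With a variance trend on mean signal in the fit, Notch1 passed (adjusted p = 0.0418). Without replicate 1 of parts 1 and 2, an alternative chosen after seeing the data, the slope of Notch1 turned to 0.042 (adjusted p = 0.540). The dimmer Notch1 probe set lay between 32.4 and 80.5, with its highest value also in replicate 1 of part 2.

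Notch3, a receptor of neural progenitors and of cells around vessels, had the smallest slope of the members. Its brighter probe set gave 562 and 375 in part 1, 472 and 546 in part 2, and 564 and 451 in part 3. The remaining pieces gave 489 and 593, 544 and 474, and 472 and 419.5. The pieces overlapped at each neighbouring pair, with means from 541 ± 72.9 (SD) in part 4 to 446 ± 37.0 in part 6. The slope was -0.0036 ± 0.035 log2 per part (limma adjusted p = 0.966). The dimmer Notch3 probe set ranged from 31.5 to 70.7.

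Of the ligands, Jag1, which activates Notch receptors on neighbouring cells, fell from part 1 to part 3 and was higher again by part 6. Its brightest probe set gave 571 and 378 in part 1, 233 and 232 in part 2, and 199 and 198 in part 3. In parts 4, 5 and 6 it gave 209 and 195, 248 and 265, and 327 and 315. The course had a trough, and both replicates had it: the arrays of part 6 lay above all arrays of parts 2 to 5 and below both of part 1. By mean the order was part 1 (475 ± 136, SD, n = 2), part 6 (321 ± 8.45), part 5 (257 ± 11.5), part 2 (233 ± 0.566), part 4 (202 ± 9.83) and part 3 (198 ± 0.725). In that order, the last pair alone overlapped.

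Because the course bends, the slope of Jag1 was small (-0.063 ± 0.071 log2 per part, limma adjusted p = 0.629), while the F test passed (adjusted p = 0.0284). A coefficient for the squared part number, a test added after the trough was seen, was 0.16 ± 0.023 for Jag1 (limma adjusted p = 0.0051). Hes5 had the other such call, so 2 of 9 members passed with an upward bend, against 0.513% of all genes with an upward bend and 1.46% in either direction. The F test call of Jag1 held in 9 of 24 alternatives and was lost without replicate 1 of parts 1 and 2 (adjusted p = 0.0668), and its bend was lost when part 1 was left out (0.10, adjusted p = 0.130) or part 6 was (0.21, adjusted p = 0.0564). The other 2 Jag1 probe sets lay between 7.16 and 25.7, and averaging all 3 gave an F test adjusted p of 0.564.

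Dll1, the ligand best known from nascent neurons and from presomitic mesoderm, was high on 3 arrays of parts 1 and 2, low in part 3 and higher again toward part 6. Its only probe set gave 453 and 226 in part 1, 524 and 22.2 in part 2, and 49.8 and 23.9 in part 3. Later pieces, parts 4 to 6, gave 39.3 and 81.9, 139 and 101, and 182 and 194. From part 4 on the pieces did not overlap, and in both replicates the signal was higher in each of parts 5 and 6 than in the piece before. In part 2 the replicates lay at opposite ends of the range of all 12 arrays. By mean the order was part 1 (339 ± 160.1, SD, n = 2), part 2 (273 ± 355), part 6 (188 ± 8.49), part 5 (120.0 ± 26.3), part 4 (60.6 ± 30.1) and part 3 (36.8 ± 18.3).

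None of the tests passed for Dll1 on all 12 arrays: the slope was -0.085 ± 0.22 (limma adjusted p = 0.852), the F test adjusted p was 0.578 and the bend was 0.37 ± 0.12 (adjusted p = 0.183). Its difference between replicates, -0.93 ± 0.57 log2, also did not pass (limma adjusted p = 0.398). Without replicate 1 of part 2 the F test passed (adjusted p = 0.0164), as it did without replicate 2 of part 2 (0.0144) and without replicate 1 of parts 1 and 2 (0.0466). The bend of Dll1 passed without replicate 1 of part 2 (0.40, adjusted p = 0.0406) and in no other of 24 alternatives. Without replicate 1 of parts 1 and 2 the slope was 0.28 (adjusted p = 0.401).

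**Figure D2:**
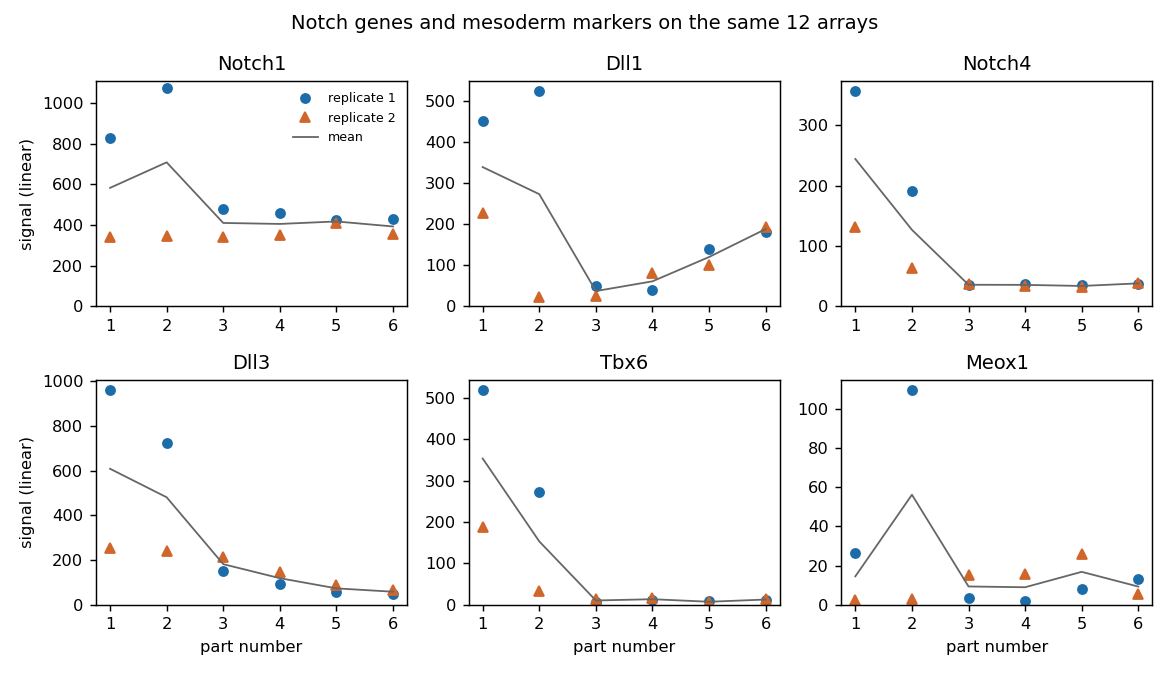
Linear signal (y axis) against part number (x axis) for Notch1, Dll1, Notch4 and Dll3 and for the mesoderm markers Tbx6 and Meox1, with circles for replicate 1, triangles for replicate 2 and a line through the means. In parts 1 and 2 replicate 1 is the higher array for all 6 genes, as with 524 against 22.2 for Dll1 and 272 against 33.7 for Tbx6 in part 2.

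On the 2 arrays where Notch1 and Dll1 were highest, several other genes were high as well. Notch4, a receptor best known from endothelium, read 357 and 191 in replicate 1 of parts 1 and 2, against 131 and 62.8 in replicate 2. Dll3, a ligand-like protein of presomitic mesoderm, read 960.4 and 722 against 255 and 238. Aplnr and S1pr3, receptors of vessels and mesoderm chosen here after their values were seen, read 1493 against 24.2 and 998 against 14.1 in part 2. The tested presomitic list summed to 5523 and 3624 in replicate 1 of parts 1 and 2 and to 3983 and 2218 in replicate 2, whereas the endothelial list summed to 73.0 to 99.6 on those 4 arrays. In part 1 the gap in the presomitic sum lay in Dll3, Hes7 (1419 and 834) and Tbx6, the first 2 being Notch pathway genes as well. The surface ectoderm list (7 tested genes of 7) summed to 1224 and 434 in part 1 and to 525 and 765 in part 2. The part of mesodermal or ectodermal tissue in the Notch1 and Dll1 values was not tested. In such pieces of tissue, fewer cells of a kind and less RNA per cell cannot be told apart.

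Lfng, the Fringe enzyme that adds sugar to Notch receptors and shifts their response from Jagged toward Delta ligands, was dim, with a low point in part 3. Its brighter probe set gave 54.2 and 48.2 in part 1, 48.6 and 26.1 in part 2, and 3.48 and 14.1 in part 3. The values were 14.5 and 24.8, 34.3 and 32.9, and 17.7 and 49.7 in parts 4, 5 and 6. Part 3 lay below every other array, while parts 1, 2 and 6 overlapped. Both arrays of part 3 lay below the lowest array median of 16.7, and the signal of 3.48 cannot be told from background. The step from part 2 to part 3 was -1.73 ± 0.49 log2, which did not pass (limma adjusted p = 0.505), and neither did the F test (0.180), the slope (-0.077 ± 0.13, 0.770) or the bend (0.20, 0.272). A second Lfng probe set never exceeded 1.81.

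Hes5, the repressor that serves as the standard readout of Notch activity in neural progenitors, changed most of all members. Its brighter probe set gave 86.4 and 152 in part 1, 29.1 and 41.2 in part 2, and 36.2 and 34.4 in part 3. Signals then went to 80.5 and 80.2, 569 and 696, and 1619 and 1415 in parts 4, 5 and 6. All 4 arrays of parts 5 and 6 lay above all 8 arrays of parts 1 to 4. By mean the order was part 6 (1517 ± 145, SD, n = 2), part 5 (632 ± 89.4), part 1 (119 ± 46.3), part 4 (80.3 ± 0.226), part 3 (35.3 ± 1.26) and part 2 (35.2 ± 8.57). Parts 3 and 2 overlapped, and every other neighbouring pair in that order was apart.

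The rise of Hes5 fell mainly between parts 4 and 5. The mean signal grew 7.87-fold there, after 2.28-fold from part 3 to part 4 and before 2.40-fold from part 5 to part 6. In log2 the step was 2.90 ± 0.26 (limma adjusted p = 0.0133). It was the largest upward step of any tested gene between those pieces. No other step between them was called in either direction, so the calls were 0.00827% of genes. The other 4 steps called no member. They called 0.248% of genes from part 1 to part 2, 0.19% from part 2 to part 3, and 0.00827% at each of the other steps. In these the single called genes were Selplg, an adhesion ligand of white blood cells, from part 3 to part 4 and Plcd4, a phospholipase, from part 5 to part 6.

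**Figure D3:**
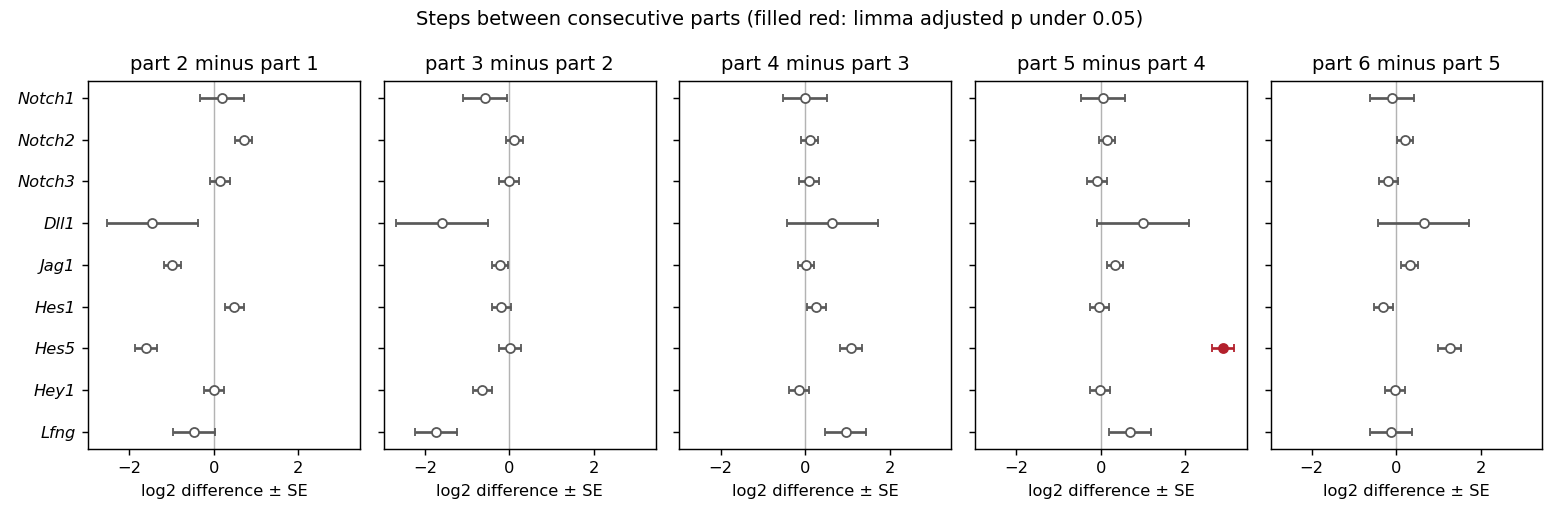
Log2 difference between consecutive parts (x axis, point and standard error) for the 9 tested members (y axis), with 1 panel per step and filled red points for a limma adjusted p under 0.05. The single filled point is Hes5 from part 4 to part 5, at 2.90.

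Across all pieces Hes5 ranked 11 of 12089 genes in the limma F test (adjusted p = 1.96e-05). Part 6 exceeded part 1 by 3.67 ± 0.26 log2 (limma adjusted p = 3.61e-05), a 12.7-fold difference of mean signal. The slope was 0.90 ± 0.21 log2 per part (adjusted p = 0.0109), with 0.98 in replicate 1 and 0.82 in replicate 2, and the bend was 0.46 ± 0.063 (adjusted p = 0.00305). Part 2 minus part 1 was -1.61 ± 0.26 for Hes5, which did not pass on all arrays (limma adjusted p = 0.0506) but did in the fit with the replicate number as a block (0.0352). Leaving out part 6 ended the slope call (0.59, adjusted p = 0.215), and leaving out part 1 that of the bend (0.31, adjusted p = 0.316). The call of the step from part 4 to part 5 was lost without any 1 array of parts 3, 4 or 5, at a difference of 2.76 to 3.05 and an adjusted p of 0.0597 to 0.289.

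The brighter Hes5 probe set carries the suffix that Affymetrix gives to sets with probes that may bind other transcripts, so the second set was read beside it. It gave 35.5 and 28.2 in part 1, 12.9 and 14.3 in part 2, and 16.9 and 11.1 in part 3. It went on to 20.1 and 24.0, 57.6 and 47.3, and 103 and 69.4 in parts 4, 5 and 6. Its course had the same turns, lowest in parts 2 and 3 and highest in part 6. In a fit of every kept probe set it passed the F test (limma adjusted p = 0.00337) and the comparison of part 6 with part 1 (1.31 ± 0.25 log2, 0.0138), but not the slope test (0.34 ± 0.10, 0.0569) or the step from part 4 to part 5 (1.10, 0.612).

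**Figure D4:**
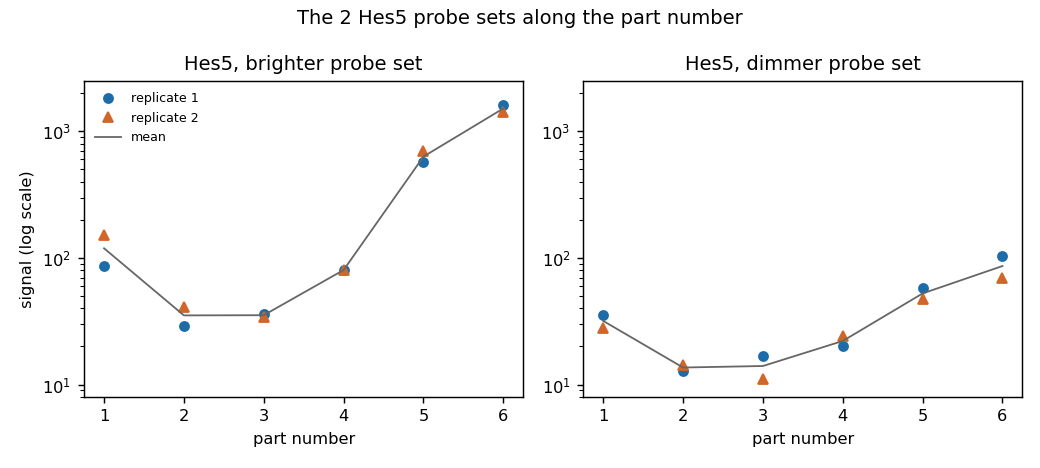
Signal on a log scale (y axis) against part number (x axis) for the brighter and the dimmer Hes5 probe set, with circles for replicate 1, triangles for replicate 2 and a line through the means. Both are lowest in parts 2 and 3 and highest in part 6, with means of 1517 and 86.4 there.

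Hey1, a repressor related to the Hes family and a Notch target in vessels, somites and neural tissue, fell along the part number, with its high arrays in parts 1 and 2. Its only probe set gave 146 and 185 in part 1, 197 and 137 in part 2, and 105 and 103 in part 3. The later pieces gave 83.4 and 106, 86.3 and 99.4, and 103 and 78.8. All 4 arrays of parts 1 and 2 lay above all 8 of parts 3 to 6, and within each of these sets neighbours in the order of means overlapped. Its slope was -0.19 ± 0.042 log2 per part (limma adjusted p = 0.00795), with -0.18 in replicate 1 and -0.21 in replicate 2, and the mean signal of part 1 was 1.82 times that of part 6. The difference between those ends, -0.84 ± 0.23, did not pass (limma adjusted p = 0.0559), nor did the F test (0.125). With part 1 left out the slope was -0.18 and did not pass (adjusted p = 0.0818).

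Hes1, the repressor best known for oscillating in progenitors, gave 161 and 128 in part 1, 180.3 and 226 in part 2, and 146 and 214 in part 3. It gave 214 and 211, 226 and 191, and 161 and 173 in parts 4 to 6. Every neighbouring pair of pieces in the order of means overlapped, from part 4 (213 ± 2.05, SD) to part 1 (145 ± 23.8). The slope was 0.041 ± 0.043 log2 per part (limma adjusted p = 0.606). Hes3, a repressor of early neural progenitors, lay between 2.31 and 18.6, where the order of signals carries no information. Of these family members Hes5 passed the slope test, the F test and the comparison of the ends and Hes1 passed none, but the difference between them was not tested.

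The genes whose course over the 12 arrays was most like that of each called member were found by the root mean square distance between log2 signals, each centred on its own mean. For Hes5, whose own standard deviation was 2.00 log2, the nearest were the ventral progenitor factor Olig2 (distance 0.684), the Slit receptor Robo2 (0.731) and the homeobox gene Nkx6-1 (0.789). Olig2 went from a mean signal of 1.01 in part 1 and 5.93 in part 4 to 29.4 in part 5 and 87.0 in part 6. The mean signals of Olig2, Robo2 and Nkx6-1 were at most 11.2 in parts 1 to 4, below the lowest array median of 16.7. The course of these genes in those pieces cannot be told from background. The nearest to Notch2 (standard deviation 0.425) were Stox2 (0.122), the galactosyltransferase gene B4galt6 (0.137) and Cuedc1 (0.143). Prex2 (0.177), Dtx3 (0.184) and Ndrg3 (0.184) were nearest to Jag1, and each had its highest mean in part 1. Those nearest to Hey1 were Sh3glb1 (0.181), Retreg1 (0.191) and the ceramidase gene Acer2 (0.202).

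The rest of the pathway was read from a list of 65 other genes, of which 60 had a probe set naming 1 gene and 56 were tested. By slope 6 rose and 4 fell, 17.857% of the tested genes against 12.7% of all genes, and the median slope was 0.007. The comparison of part 6 with part 1 called 4 higher and 3 lower of the 56, against 9.0% of all genes, and the F test called 5, against 4.89%. Of the 4 that fell, Hes7 and Dll3 also belong to the presomitic marker list.

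**Figure D5:**
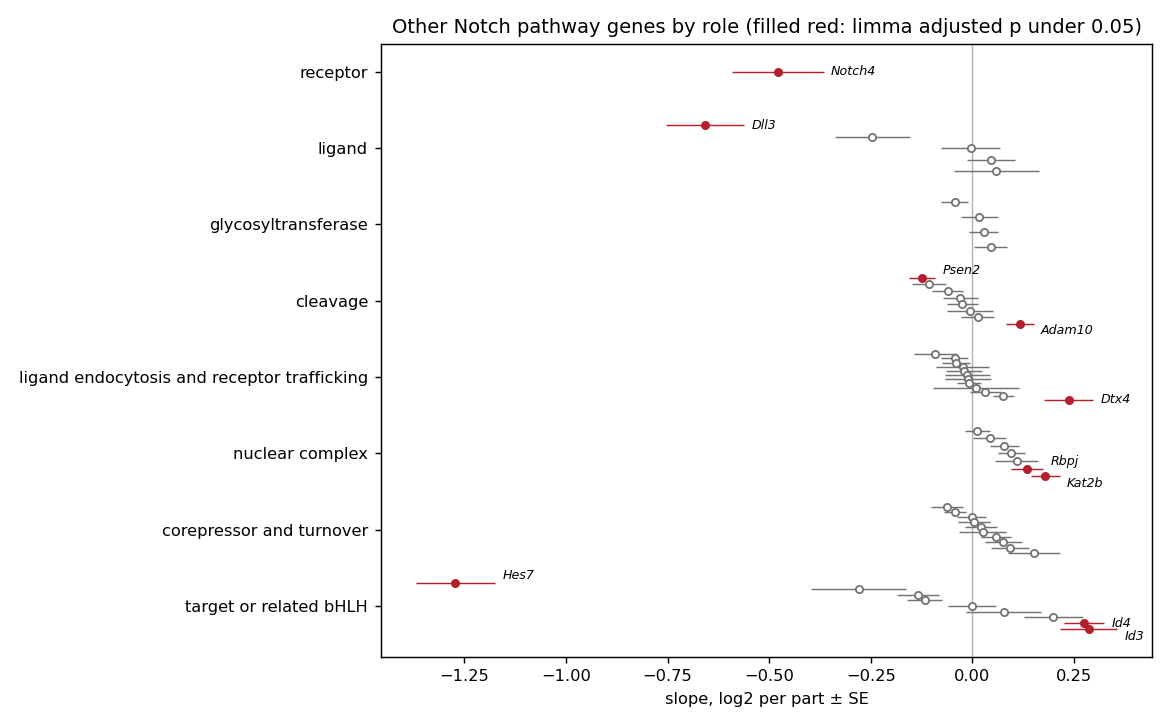
Slope along the part number (x axis, log2 per part, point and standard error) for the 56 tested other genes of the pathway, grouped by role (y axis), with filled red points for a limma adjusted p under 0.05. Hes7 at -1.27, Dll3 at -0.66 and Notch4 at -0.48 lie far to the left, and the 6 genes that rose lie between 0.12 and 0.29.

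The largest changes in that list were falls. Hes7, an oscillating repressor of presomitic mesoderm, dropped from 1126 ± 413 in part 1 to 16.1 ± 2.12 in part 6 (SD, n = 2), with a slope of -1.27 ± 0.097 (limma adjusted p = 2.58e-06). Dll3 had a slope of -0.66 ± 0.096 (adjusted p = 0.00053) and went from 608 ± 499 to 58.4 ± 13.0. Notch4 went from 244 ± 160.1 to 37.8 ± 1.06, with a slope of -0.48 ± 0.11 (adjusted p = 0.0131). Notch4 no longer passed without replicate 1 of parts 1 and 2 (-0.26, adjusted p = 0.0622) or without part 1 (-0.30, adjusted p = 0.206), while those of Hes7 and Dll3 held in all 24 alternatives. Psen2, a catalytic subunit of the gamma-secretase that cuts Notch, had a slope of -0.12 ± 0.032 (adjusted p = 0.021), which passed in 17 of 23 alternatives but not without replicate 1 of parts 1 and 2 (adjusted p = 0.0994).

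The rises were smaller. Dtx4, a ubiquitin ligase of the Deltex family, went from 253 ± 23.7 in part 1 to 486 ± 4.27 in part 6, with its highest arrays in parts 4 and 5, at 706 and 703. Its slope was 0.24 ± 0.061 (limma adjusted p = 0.0216), and it also passed the F test. The slope call of Dtx4 was lost without part 1 (0.16, adjusted p = 0.307), without either array of part 1 (0.0717 and 0.0743) and without replicate 1 of parts 1 and 2 (0.137). In the nucleus, Rbpj rose by 0.13 ± 0.039 per part (adjusted p = 0.04), from 328 ± 82.6 to 529 ± 41.7, and the acetyltransferase Kat2b by 0.18 ± 0.036 (adjusted p = 0.00494). Adam10, the protease that makes the first cut in Notch, rose by 0.12 ± 0.035 (adjusted p = 0.0418). The calls of Rbpj and Adam10 held in 11 and 9 of 24 alternatives and were lost without replicate 1 of parts 1 and 2 (adjusted p = 0.106 and 0.119). Crebbp, a coactivator, passed between parts 1 and 6 only (0.95 ± 0.23, adjusted p = 0.0333). That call of Crebbp held in 13 of 22 alternatives and was lost without replicate 1 of parts 1 and 2 (adjusted p = 0.0696).

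Id3 and Id4, helix-loop-helix inhibitors related in action to the Hes genes, both rose. Id3 was 239 ± 4.09 in part 1 and 567 ± 39.0 in part 6, with a slope of 0.29 ± 0.070 (limma adjusted p = 0.0162). Id4 went from 20.8 ± 5.55 to 60.6 ± 8.88, with a slope of 0.27 ± 0.050 (adjusted p = 0.00273). Both calls were lost without the arrays of part 6, at adjusted p of 0.288 and 0.0813. The genes next in line did not pass the slope test: Mib1 (0.076, adjusted p = 0.069), Ep300 (0.095, 0.0794), Id2 (0.20, 0.0954), Id1 (-0.12, 0.0973), Dlk1 (-0.25, 0.105) and Hes6 (-0.13, 0.119).

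Proneural genes, which the Hes proteins are known to repress, were read from a list of 9, of which 6 were tested. By limma slope 4 rose and none fell, where 5.64% of all genes rose. However, Neurog1, Neurod1, Neurog3 and Neurod4 read at most 14.6 in parts 1 to 3, below the lowest array median of 16.7. They were tested only because later pieces were brighter, which favours a rise. The count therefore cannot be weighed against that share. Neurog2 read 0.341 and 2.52 in part 1, 146 and 98.0 in part 4, and 354 and 349 in part 6, with a slope of 1.09 ± 0.094 log2 per part (adjusted p = 7.86e-06). In part 2 it read 31.2 and 27.4, above both arrays of part 1. Neurog1 (0.91, adjusted p = 0.000152), Neurod1 (0.36, adjusted p = 0.00135) and Neurog3 (0.51, adjusted p = 0.0139) were the others. The call of Neurog3 was lost without part 6 (0.27, adjusted p = 0.273), without either array of part 6 (0.0509 and 0.0582) and without part 1 (0.0523). Neuron markers did not rise as a list: of 6 tested, 1 rose and 3 fell by slope. Of all genes 5.64% rose and 7.05% fell. Elavl4 rose, while Stmn2, Map2 and Mnx1 fell. Mnx1 read at most 9.64 in parts 4 to 6 and was tested only because earlier pieces were brighter. The count of falls therefore cannot be weighed against that share. The neuronal tubulin Tubb3 lay between 29.8 and 85.8.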

How the data were processed

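Total RNA of 6 pieces of posterior neural tube, 2 replicates each, was amplified in 2 cycles and labelled with biotin, as the labels' protocols state. The deposited values are linear intensities, 1 for each probe set of an array. Per the submitters' processing notes they come from MAS5, whose version is not given in the sources used here. With 2% left out at each end the mean signal was 100.001 on every array, and detection calls were not used. Of 45101 probe sets, 64 were controls; the platform annotation named 1 gene for 34958 (34945 without controls), several for 932 and none for 9211, and 34741 of those naming 1 gene matched the RefSeq gene table by Entrez number. Probe sets were retained if brighter than their array's median on at least 2 of 12 arrays, which left 21679. The retained probe set brightest by mean log2 value stood for its gene, giving 12089 genes.

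From the deposited intensities log2(signal + 4.43) was computed, where the offset is 0.25 times the overall median signal (17.7), so fold changes of dim genes are understated. All models used limma 3.58.1 (R 4.3.3), all arrays sharing 1 estimate of the spread, with two-sided tests and Benjamini-Hochberg adjustment over all genes at 0.05. The scripts were tested on simulated data. The number of arrays limits the precision.

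The design text names 2 embryos, but the labels do not say that the replicate number marks the embryo. Over the 15 pairs of pieces, arrays with the same number deviated together from the means of their pieces (correlations of 0.175 to 0.325, median 0.226). Any other difference shared by same-numbered arrays would give this too, so it cannot tell whether the number marks the embryo. The main fits did not pair the arrays by replicate number and treated them as independent. A fit with the replicate number as a block was an alternative, and its value is given where it changes a call.

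Named genes were all members, and the other pathway genes that passed the slope test, the F test or the comparison of parts 6 and 1, with the 6 next by slope p. They further included up to 4 proneural genes passing the slope test, the defining cell type markers, and the 3 genes nearest to each member that passed the slope or F test, genes known only by clone or predicted names being left out. The members and lists were chosen with earlier results of these data known. Alternatives covered the offset, quantile normalization, the filter, the choice of probe set, a variance trend, the replicate block and arrays left out. The bend test and the fit without replicate 1 of parts 1 and 2 were added after seeing the data. Sequences are from the RefSeq promoter table, build GRCm38.p6. Some genes of the lists are not reported here.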

Additional observations from a re-analysis of the deposited data

How the results depend on the processing

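The direction of the calls of Hes5, Notch2 and Hey1 by slope, of Hes5 and Notch2 between parts 6 and 1, and of the Hes5 step from part 4 to part 5 was the same in every alternative run on the chosen probe set. Fits without 1 array leave a piece with a lone array, which is assumed to vary like the others. The F test called 3 members, and 1 with no filter, with the mean of kept probe sets, and without both arrays of part 1 or of part 6; with 1 array left out it called 1 to 3. Averaging probe sets left 1 member called between parts 6 and 1 and 1 by bend. The bend called 0 members without both arrays of part 1 and 1 without part 6. A step was called for 2 members with a filter at the 75th percentile or a variance trend, and for 0 to 2 with 1 array left out. The variance trend called 1 member between replicates. The replicate block changed no slope, F test or end call of a member: its slopes were 0.90 for Hes5 (limma adjusted p = 0.0141), 0.22 for Notch2 (0.00215) and -0.19 for Hey1 (0.00985). It raised the summed step calls over all genes from 56 to 87. Signs turned only for slopes or differences short of the threshold. Without both arrays of part 1, slopes were 0.30 for Dll1, -0.032 for Hes1, 0.13 for Jag1, 0.12 for Lfng and -0.0072 for Crebbp, and without part 6 that of Notch3 was 0.037. Without replicate 1 of parts 1 and 2, slopes were 0.28 for Dll1, 0.023 for Jag1, 0.061 for Lfng, 0.042 for Notch1 and 0.012 for Notch3, part 6 against part 1 was 0.20 for Notch1 and 0.24 for Notch3, and the Dll1 slope difference between replicates was -0.52. Averaging probe sets gave 0.0054 for Jag1 between the ends. With 1 array left out, slopes ran from -0.20 to 0.089 for Dll1, -0.11 to 0.027 for Jag1 and -0.042 to 0.018 for Notch3, and end differences from -1.07 to 0.20 for Notch1 and -0.33 to 0.24 for Notch3. Over all genes, slope calls fell from 1534 to 896 without part 1, 974 without part 6 and 1016 without replicate 1 of parts 1 and 2, and F test calls from 591 to 300 and 316 without part 1 and part 6. Bend calls fell from 176 to 114 with no filter, 4 without part 1 and 34 without part 6. Calls between replicates went from 196 to 62 without replicate 1 of parts 1 and 2, and to 806 with every probe set tested. Signals of a few units, as for Hes3, the second Notch2 and Lfng probe sets, cannot be told from background.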

Other observations

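Nrarp and Hey2, also on the pathway list, had courses like that of Dll1 and were chosen here after their values were seen. Nrarp, a Notch target that limits the pathway by feedback, read 1636 and 1248 in part 1, 1618 and 394 in part 2, and 315 and 293 in part 3, and then 555 and 442 in part 6. Its arrays in part 2 split as those of Dll1 did, and its slope did not pass (-0.28 ± 0.12, limma adjusted p = 0.143). Hey2, a relative of Hey1, read 69.6 and 51.1 in part 1, 23.9 and 34.9 in part 3, and 91.3 and 84.2 in part 6. Both arrays of Hey2 in part 6 lay above all others, whereas Hey1 was lowest there by mean. The Hey2 slope was 0.077 ± 0.092 (limma adjusted p = 0.655) and its bend 0.19 (adjusted p = 0.0195), and the difference between Hey1 and Hey2 was not tested.

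Among cell type markers, the progenitor factor Pax6 read 17.2 and 34.2 in part 1, 79.1 and 68.9 in part 4, 191 and 207 in part 5, and 354 and 329 in part 6. Sox2, which marks neural progenitors broadly, was already near its later level by part 3, with 199 and 286 in part 1, 820.3 and 981 in part 2, and 1207 and 1558 in part 3. Foxd3, a neural crest factor, read 1.92 and 2.40 in part 1 and 83.0 and 95.8 in part 6, while Sox10 stayed between 17.0 and 34.1. The part 1 signals of Foxd3 cannot be told from background. Of 5 tested crest markers 1 rose by slope and none fell, where 5.64% of all genes rose and 7.05% fell. The crest list summed to 294 and 134 on the arrays of part 1 and to 254 and 266 on those of part 6. Of 7 tested markers of surface ectoderm 5 fell by slope and none rose, where 7.05% of all genes fell. Tfap2c, of the same list, had a slope of 0.33 that did not pass (limma adjusted p = 0.0534). Krt8 read 449.9 and 149 in part 1 against 32.6 and 34.5 in part 6 (slope -0.66 ± 0.11, limma adjusted p = 0.0013). The part of such tissue in the fall of Hey1, or in the high Jag1 signal of part 1, was not tested.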
